A study of Mus musculus with 5 samples.

Results

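The regions described here are those of an anti-ACAA2 ChIP-seq table from mouse heart to which the authors assigned a gene for a core or linker histone. All regions with a gene symbol of the clustered histone genes (Hist1h to Hist4h) or of a variant histone gene (H2af, H3f3 and related symbols) were taken. They were 20 of 3885 regions, 12 with clustered genes and 8 with variant genes, and the rule reads gene names only. ACAA2 is a thiolase of mitochondrial fatty acid oxidation, and ChIP-seq is the sequencing of DNA that is pulled down with an antibody from sheared chromatin.

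The study set hearts under pressure overload beside hearts with a mock operation, on a high-fat and on a low-fat diet. Transverse aortic constriction (TAC) narrows the aorta so that the heart pumps against a higher load, and sham is the operation without the narrowing. The 4 groups were TAC on the 60% fat diet, sham on the 60% fat diet, TAC on the 10% fat diet and sham on the 10% fat diet, with fat as a percentage of calories. All animals were male C57BL/6J mice, labelled as 12 weeks old, that ate their diet for 4 days before the operation and for 1 week after it. Each group was 1 library from a pool of 3 hearts. No spread between animals could therefore be computed, no difference below was tested, and the intervals given cover the counting of fragments only. The whole heart was used, so fewer cells of a type and less signal per cell cannot be told apart. The series and its antibody label name ACAA2, whereas the extraction text speaks of antibodies to a butyrylated or an acetylated lysine of histone H3. The antibody therefore rests on the label, and a pooled input listed with the series was not analysed here.

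Histones H2A, H2B, H3 and H4 form the core around which DNA is wrapped, and H1 binds the linker between cores. The clustered genes are switched on together in S phase, when new DNA needs new histones, and their messages end in a stem-loop in place of a poly(A) tail. Variant genes stand alone in the genome and are used outside S phase as well. H2afz and H2afv encode the H2A.Z proteins, found at promoters; H2afx encodes H2A.X, which is phosphorylated at DNA breaks; H3f3b encodes a replacement form of H3. Most adult heart muscle cells do not divide.

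The 20 regions held 38 histone symbols, 34 clustered and 4 variant, and 1 of the 38, Hist3h2bb-ps, is a pseudogene. By the same rule RefSeq lists 84 protein-coding histone genes in the mouse, of which 37 had a region, 33 of 67 clustered and 4 of 17 variant. By protein family, a region was listed for 3 of 6 clustered H1 genes, 7 of 12 H3 genes and 4 of 13 H4 genes. For H2A and for H2B it was 10 of 18 each, with the pseudogene counted among the H2B symbols. H3f3a, H1f0, H2afy, Hist4h4 and Hist2h4 were among the genes with no region. The share of all RefSeq genes with a region was not computed. These counts, and those of the gene lists below, therefore set no class, family or list apart from other genes. Because clustered genes lie close together, 12 regions were assigned 2 or more histone genes and 1 region 6, and a signal there belongs to a region and not to 1 gene. Only 15 of the 38 symbols had their start within 1000 bp of the middle of a region.

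Most regions lay at the start of a histone gene. In 16 of 20 the start of a histone gene was within 1000 bp, and in 17 of 20 the nearest listed start was a histone start. Of the 12 clustered regions 8 were upstream of their nearest histone gene, 2 inside it and 2 beyond its end. In 3 regions another gene was nearest, among them Dpagt1 beside H2afx and LOC101055801 beside H2afz. A CpG island was listed in 7 of 12 clustered and in 8 of 8 variant regions, 15 of 20 in all, against 73.7% of all regions. The median histone region was 258 bp long, against 307 bp over all regions, and the median number of assigned genes was 3 against 1. A promoter was listed in 19 of 20, against 82.6% of all regions, and 2 or more promoters in 13, against 26.9%. At least 3 genes were assigned to 15 of 20, against 16.3% of all, and the start of some gene lay within 1000 bp in 18, against 74.4%.

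**Figure D1:**
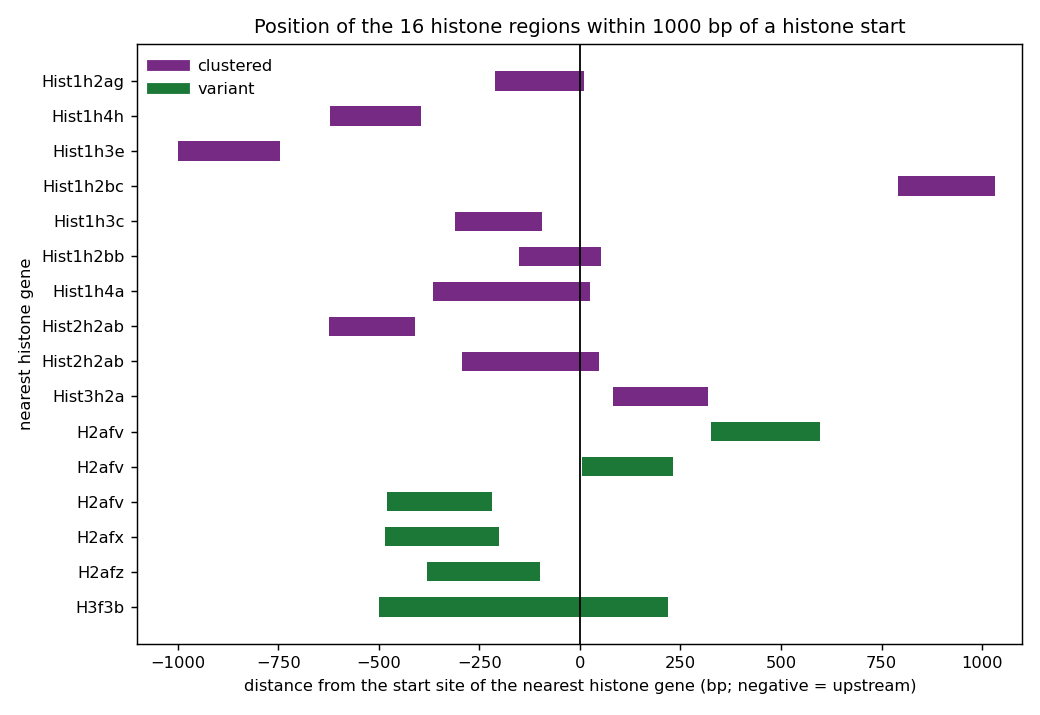
Position of the 16 regions whose middle lies within 1000 bp of a histone start, in bp from the start the authors used (horizontal axis, upstream negative); each bar is 1 region drawn to its length. Upstream bars outnumber those inside genes, and the H3f3b region is the longest at 720 bp.

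The stretches of DNA under the regions that reach a histone promoter are shown for 6 regions, to let the elements that clustered promoters share be seen beside the signal. They are RefSeq sequences of build GRCm38.p6, the assembly also called mm10, and only upstream bases inside the region are printed; for some genes the RefSeq start is not the one the authors measured distances from. Capitals mark CCAAT on either strand (ATTGG when read on the other strand), TATAAA on the strand of the gene, ATTTGCAT on either strand, and the palindromes CACGTG and TGACGTCA. In Hist1h4a they also mark TTTCCCGC on either strand. No marked motif overlaps another.
Hist1h2bj, facing Hist1h2ag (chr13:22042950-22043160, plus strand): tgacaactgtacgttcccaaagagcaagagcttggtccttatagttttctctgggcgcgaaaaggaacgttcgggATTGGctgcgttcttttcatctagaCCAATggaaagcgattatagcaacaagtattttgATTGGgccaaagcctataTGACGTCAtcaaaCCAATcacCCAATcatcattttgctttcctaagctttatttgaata
Hist1h3c (chr13:23745614-23745771, minus strand): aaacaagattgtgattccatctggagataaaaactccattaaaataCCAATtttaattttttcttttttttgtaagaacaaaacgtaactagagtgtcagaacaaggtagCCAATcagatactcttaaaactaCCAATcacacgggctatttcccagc
Hist1h2bb (chr13:23746583-23746733, plus strand): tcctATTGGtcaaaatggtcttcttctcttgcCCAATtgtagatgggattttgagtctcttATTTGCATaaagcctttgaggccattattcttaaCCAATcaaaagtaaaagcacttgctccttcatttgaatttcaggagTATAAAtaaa
Hist1h4a (chr13:23761250-23761499, minus strand): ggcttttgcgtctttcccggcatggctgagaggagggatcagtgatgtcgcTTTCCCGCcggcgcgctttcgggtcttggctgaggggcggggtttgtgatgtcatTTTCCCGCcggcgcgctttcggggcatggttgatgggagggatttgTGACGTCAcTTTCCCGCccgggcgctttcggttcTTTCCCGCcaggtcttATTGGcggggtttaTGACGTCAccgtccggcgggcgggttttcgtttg
Hist2h2ab (chr3:96219635-96219884, plus strand): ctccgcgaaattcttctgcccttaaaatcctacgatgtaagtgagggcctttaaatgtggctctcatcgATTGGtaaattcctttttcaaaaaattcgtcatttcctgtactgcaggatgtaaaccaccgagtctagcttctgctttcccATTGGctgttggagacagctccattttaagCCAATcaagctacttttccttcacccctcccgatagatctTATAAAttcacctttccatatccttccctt
H2afz (chr3:137864237-137864486, plus strand): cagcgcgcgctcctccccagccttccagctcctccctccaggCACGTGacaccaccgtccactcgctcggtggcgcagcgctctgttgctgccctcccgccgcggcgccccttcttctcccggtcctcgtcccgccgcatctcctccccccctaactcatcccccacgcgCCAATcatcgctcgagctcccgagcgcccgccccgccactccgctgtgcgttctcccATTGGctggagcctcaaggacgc

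CCAAT, the element bound by the NF-Y complex, recurs in the clustered sequences, with 5 copies in the stretch that the divergent H2B and H2A genes Hist1h2bj and Hist1h2ag share. A promoter was in the RefSeq table for 33 of the 38 symbols. Only 15 of the 38 had a start within 1000 bp of the middle of a region. The shares below therefore describe promoters of assigned genes and not the bases under the regions. CCAAT was present in the 250 bases upstream of 27 of 30 clustered genes (90%) and 3 of 3 variant genes, against 33.8% of all 32851 promoters. TATAAA, the core of a TATA box, was in 12 of 30 clustered promoters, against 7.59% of all. ATTTGCAT, the octamer read by the POU factor encoded by Pou2f1, was in 10 of 30, against 1.60% of all. CACGTG, an E-box, was in none of the 30 and in 1 of 3 variant promoters, that of H2afz, against 6.02% of all. TGACGTCA, the full cyclic AMP response element, was in 4 of 30, against 1.55% of all, and those 4 were Hist1h2ag, Hist1h2bj, Hist1h4a and Hist1h4h. TTTCCCGC, a form of the E2F element, was in 1 of 30, against 0.895%, and that promoter, Hist1h4a, held 4 copies. The last pair of motifs was chosen after the sequences had been seen. Facing genes share bases, so these promoters are not independent of each other. The median number of CpG dinucleotides per 250 bases was 7.5 in clustered and 19 in variant promoters, against 6 over all.

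Signal below is the average signal of a region, the mean height to which fragments pile up over it, as the authors deposited it. Values of the 4 libraries are given in the order TAC on 60% fat, sham on 60% fat, TAC on 10% fat and sham on 10% fat. An average signal times the region length, divided by 224, gave the estimated number of fragments. Over all regions this came to 62559, 49593, 68963 and 75313 fragments, so the sham library on 60% fat had the fewest estimated fragments. These sums cover the regions only, and the scaling between libraries is not stated, so they do not give sequencing depth. The median histone region held 10.8, 8.09, 10.7 and 15.4 fragments, and at such counts a single region has a wide interval. Averaged over the 4 libraries, the median signal of clustered regions was 8.78, that of variant regions 10.5 and that of all regions 9.76. A region is in the table because it was called above background in at least 1 library. Of the histone regions 5 were called in TAC on 60% fat, against 35.9% of all regions, 2 in sham on 60% fat (15.4%), 6 in TAC on 10% fat (46.8%) and 12 in sham on 10% fat (57.3%). Of the 20, 17 were called in 1 library alone, against 63.8% of all regions. Sham on 10% fat was that library for 9 of the 20, against 27.5% of all regions. Another 4 of the 20 were called in TAC on 60% fat alone (13.4% of all regions). TAC on 10% fat alone had 3 (19.6%) and sham on 60% fat alone 1 (3.35%). Among the 2479 regions of the whole table called once, 1068 were called in sham on 10% fat, beside 9 of the 17 here. Sham on 60% fat had the lowest signal of the 4 libraries in 10 regions, against 50.9% of all, and sham on 10% fat the highest in 10, against 42.2%. None was called in all 4, against 4.12% of all regions. A region called in 1 library alone had to be high there, so a ratio with that library on one side is a description, and its interval gives no support for a direction. For the difference between diets this bears on the 13 regions called in sham on 10% fat alone or in TAC on 60% fat alone (40.9% of all regions), since a high signal in either library raises that difference.

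**Figure D2:**
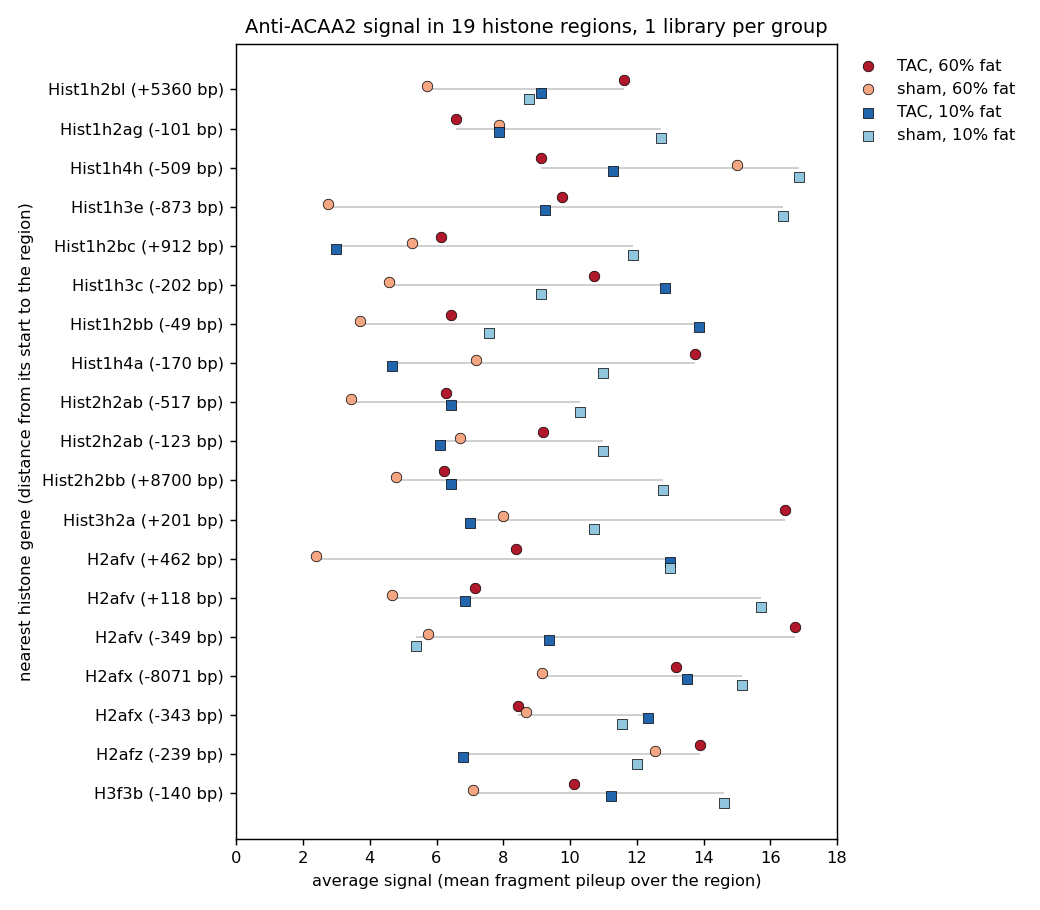
Average signal (horizontal axis, mean fragment pileup) of 19 of the 20 histone regions in the 4 libraries, 1 symbol per library, named by the nearest histone gene and its distance in bp; grey lines span the lowest to the highest library. Sham on 60% fat is the lowest library in 10 of the 19 regions, and sham on 10% fat is the highest in 10.

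Among clustered regions, the one upstream of the H4 gene Hist1h4h (chr13:23530422-23530648, with Hist1h2af and Hist1h3g) had the highest mean signal, 13.1. Its signal was 9.14, 15, 11.3 and 16.9, so both TAC libraries were below both sham libraries. It was the only histone region called in sham on 60% fat alone. The log2 ratio of TAC over sham, taken here and below of signals plus 1, was -0.66 on 60% fat and -0.54 on 10% fat, and both counting intervals included 0 (-2.11 to 0.55 on 60% fat).

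The region upstream of the H4 gene Hist1h4a (chr13:23761132-23761523), which was also assigned the H1 gene Hist1h1a and H2A and H3 genes, had a signal of 13.8, 7.17, 4.67 and 11. TAC was the higher library on 60% fat and the lower one on 10% fat. The log2 ratio of TAC over sham was 0.85 (95% interval -0.15 to 1.98) on 60% fat and -1.08 (-2.65 to 0.01) on 10% fat, a difference between diets of 1.94 (0.43 to 3.88). The region was called in TAC on 60% fat alone, its highest library. Between TAC libraries, 60% over 10% fat was 1.38 (0.38 to 2.95). Its promoter, printed above, holds 27 CpG dinucleotides and 2 copies of TGACGTCA.

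H3 genes were nearest in 2 regions of the Hist1 cluster. The region upstream of Hist1h3e (chr13:23563112-23563365, with the H1 gene Hist1h1d) had a signal of 9.75, 2.75, 9.25 and 16.4. The TAC libraries were nearly level, and the sham libraries were the lowest and the highest of the 4. The log2 ratio of TAC over sham was 1.52 (-0.05 to 4.36) on 60% fat and -0.76 (-2.13 to 0.34) on 10% fat, and the difference between diets, 2.28 (0.34 to 5.44), was the largest of the 20. The region was called in sham on 10% fat alone, its highest library. Between sham libraries, 60% over 10% fat was -2.21 (-4.99 to -0.81). The region at Hist1h3c (chr13:23745614-23745832, with the H1 gene Hist1h1c) had 10.7, 4.57, 12.9 and 9.14, so TAC was higher than sham on both diets, with log2 ratios of 1.07 (-0.47 to 3.45) and 0.45 (-0.81 to 1.94).

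H2A and H2B genes, which often face each other across a shared promoter, were nearest in the other clustered regions. Only 751 bp from the Hist1h3c region, the one over the start of the H2B gene Hist1h2bb (chr13:23746583-23746788) had a signal of 6.43, 3.71, 13.9 and 7.57, with TAC again higher than sham on both diets (log2 0.66 and 0.79). The region between Hist1h2ag and Hist1h2bj (chr13:22042940-22043160) had 6.57, 7.86, 7.86 and 12.7, with TAC lower on both diets (-0.23 and -0.63). The region inside Hist1h2bc (chr13:23684990-23685232) had 6.13, 5.25, 3 and 11.9. Its TAC over sham ratio of -1.69 (-4.57 to -0.25) on 10% fat was the lowest of the 20, in a region called in sham on 10% fat alone. Beyond the end of Hist1h2bl (chr13:21710457-21711110, with Hist1h2ai and Hist1h3h) the signal was 11.6, 5.71, 9.14 and 8.76. This longer region was called in 3 libraries, all but sham on 60% fat. TAC over sham was 0.91 (0.12 to 1.93) on 60% fat, where only the TAC library was called, and 0.06 on 10% fat.

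The Hist2 cluster on chromosome 3 gave 3 regions with 1 pattern, called in sham on 10% fat alone. In the region upstream of the H2A gene Hist2h2ab (chr3:96219293-96219505) the signal was 6.29, 3.43, 6.43 and 10.3. Over its promoter, 118 bp away (chr3:96219623-96219963), it was 9.20, 6.70, 6.10 and 11. Beyond Hist2h2bb (chr3:96278254-96278546, with the H3 gene Hist2h3b) it was 6.22, 4.78, 6.44 and 12.8. In all 3, TAC was above sham on 60% fat and below it on 10% fat. Summed over the 3 regions, the log2 ratio of estimated fragments for TAC over sham on 10% fat was -0.86 (-1.63 to -0.09), and -0.73 (-1.5 to 0.04) after division by the library totals. Since all 3 regions entered the table through sham on 10% fat alone, neither value supports a direction.

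The Hist3 region, inside the H2A gene Hist3h2a (chr11:58954768-58955005, with Hist3h2ba and the tripartite-motif gene Trim17), had 16.4, 8, 7 and 10.7. The TAC library on 60% fat stood above the others, at the 95.7th percentile of all regions in that library. TAC over sham was 0.95 (-0.20 to 2.51) on 60% fat and -0.55 (-2.26 to 0.85) on 10% fat, and 60% over 10% fat was 1.12 (-0.06 to 2.79) between TAC libraries.

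Of the variant genes, H2afv had 3 regions within a short stretch of chromosome 11, and their libraries ranked differently. Upstream of the gene (chr11:6444661-6444924) the signal was 16.8, 5.75, 9.38 and 5.38, with both TAC libraries above both sham libraries. Just inside it (chr11:6444213-6444438) it was 7.14, 4.67, 6.86 and 15.7, and farther in (chr11:6443846-6444117) it was 8.38, 2.38, 13 and 13. Both inner regions were called in sham on 10% fat alone and the upstream one in TAC on 60% fat alone, where it stood at the 96.5th percentile. TAC over sham on 60% fat was 1.40 (0.21 to 3.00) upstream, 0.52 (-1.39 to 2.48) just inside and 1.47 (-0.22 to 4.24) farther in. On 10% fat it was 0.70, -1.09 and 0.00. Summed over the 3 regions, the log2 ratio of fragments was 1.37 (0.48 to 2.40) on 60% fat and 1.03 (0.15 to 2.07) after division by library totals, which is the largest share ratio of TAC over sham among the groups of regions compared. The sum rests on few fragments in sham on 60% fat, as the innermost region held 2.87 there. In TAC on 60% fat the upstream region held 19.7 of the 37.0 fragments, and it was called in that library alone. Neither summed value on 60% fat therefore supports a direction.

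H2afx had 3 regions, of which 2 are given singly, and in these the 4 libraries lay closer together than in H2afv. At its own start (chr9:44334231-44334514) the signal was 8.44, 8.67, 12.3 and 11.6. Upstream of Dpagt1, a gene of protein glycosylation (chr9:44326538-44326750), it was 13.2, 9.17, 13.5 and 15.2. Summed over the 3 regions, TAC over sham was 0.08 on 60% fat and -0.01 on 10% fat, and the difference between diets was 0.09 (-0.78 to 0.97), an interval that still allows differences near 2-fold either way.

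The H2afz region (chr3:137864220-137864500) had a signal of 13.9, 12.6, 6.78 and 12, with the TAC library on 10% fat below the other three. TAC over sham was 0.14 on 60% fat and -0.74 (-2.35 to 0.42) on 10% fat, and 60% over 10% fat was 0.94 (-0.20 to 2.51) between TAC libraries. The H3f3b region (chr11:116024284-116025004), which was also assigned Unk, had 10.1, 7.09, 11.2 and 14.6. With 32.6, 22.8, 36.1 and 47.0 fragments it had the largest total of the 20. Its TAC over sham ratio was 0.46 (-0.29 to 1.36) on 60% fat and -0.35 (-1.05 to 0.27) on 10% fat. Between sham libraries, 60% over 10% fat was -0.95 (-1.82 to -0.28), against a median of -0.57 over all regions. The log2 ratio of its fragments between sham libraries was -0.44 (-1.22 to 0.32) after division by the library totals, an interval that includes 0. The region was called in both libraries on 10% fat and in neither on 60% fat.

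Across the 20 regions, TAC over sham on the 60% fat diet had counts near those of the whole table. The ratio was above 0 in 16 of 20 regions, against 68.7% of all regions. It was at least 2-fold higher in 4, against 15.5% of all, namely those at Hist1h3e and Hist1h3c and the upstream and innermost regions of H2afv, and 2-fold lower in none, against 3.11%. The median log2 ratio was 0.50, against 0.32 over all regions, with 0.69 in clustered and 0.47 in variant regions. Centred on the median of all regions it was 0.18. The interval lay above 0 in 2 regions, at Hist1h2bl and upstream of H2afv, against 10.7% of all. Both were called in TAC on 60% fat and not in sham on 60% fat.

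On the 10% fat diet fewer regions had TAC above sham. The ratio was above 0 in 6 of 20 regions, against 43% of all, with 13 below and 1 level. None was 2-fold higher, against 7.98% of all, and 3 were 2-fold lower, against 11.7%, at Hist1h2bc, Hist1h4a and just inside H2afv. The median was -0.54, against -0.14 over all regions, with -0.62 in clustered and -0.08 in variant regions. Centring left 1 region 2-fold lower. Of the 3 lower regions, 2 were called in sham on 10% fat and not in TAC on 10% fat, and the other in neither. The interval lay below 0 in 1 region, at Hist1h2bc, against 9.68% of all, and above 0 in none, against 5.66%.

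**Figure D3:**
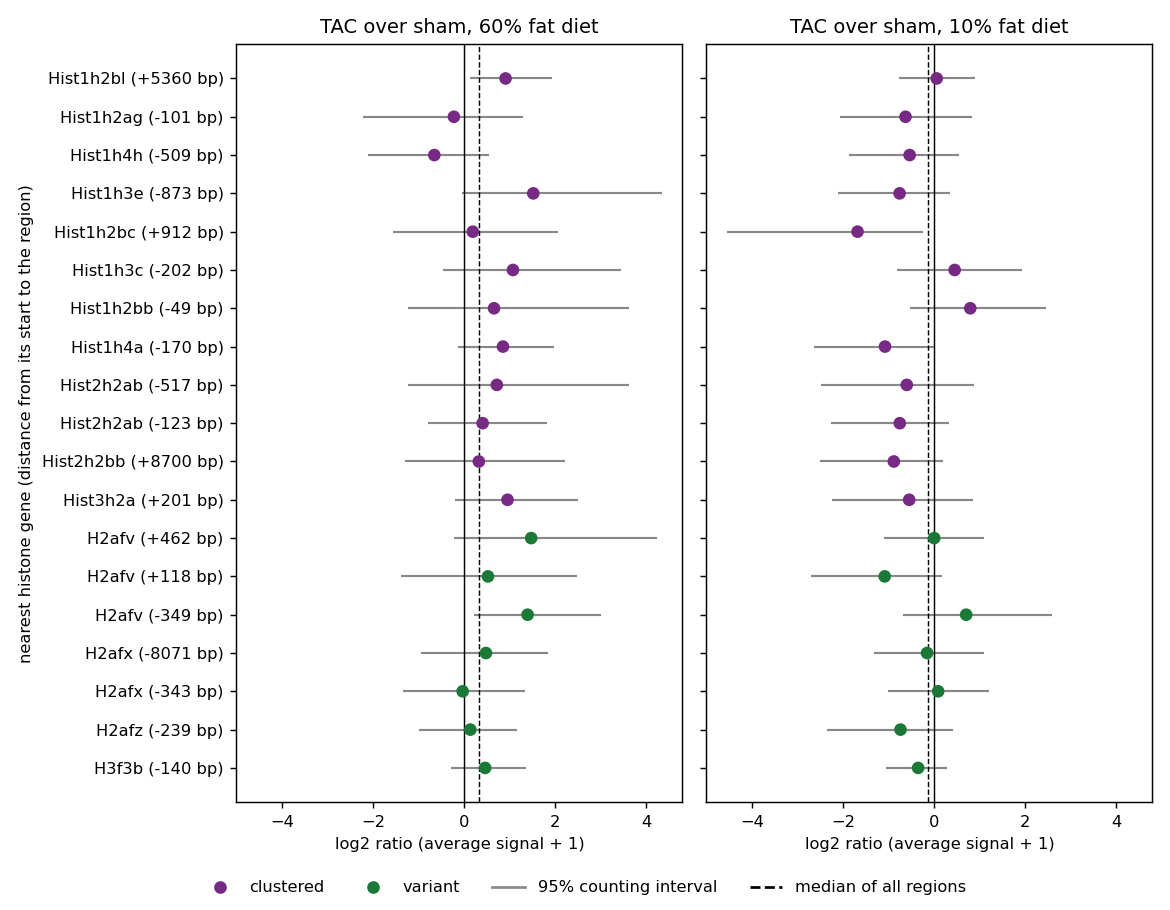
TAC over sham as a log2 ratio, on 60% fat at left and on 10% fat at right, for 19 of the 20 regions, from average signals plus 1, with 95% counting intervals as lines; the dashed line is the median of all 3885 regions, 0.32 at left and -0.14 at right. On 60% fat 16 of the 19 points lie above 0, and on 10% fat 5 do.

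The difference between diets, TAC over sham on 60% fat minus that on 10% fat, was above 0 in 16 of 20 regions, against 67.6% of all. It was at least 1 log2 unit in 9, against 28.9% of all, and at most -1 in none, against 8.7%. Those 9 were 7 clustered and 2 variant regions. In 11 regions TAC was higher than sham on 60% fat and lower on 10% fat, against 38.3% of all. The median difference was 0.87, against 0.45 over all regions, with 1.19 in clustered and 0.75 in variant regions, and 0.40 after centring on all regions.

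The comparisons between diets use the same 4 libraries and so share them with those above. In TAC hearts, 60% over 10% fat was 2-fold higher in 2 regions, at Hist1h4a and Hist3h2a, against 7% of all, and 2-fold lower in none, against 11.3%. The ratio was above 0 in 9 of 20, against 42.1%, and the interval lay above 0 in 1, at Hist1h4a, against 4.3%. The median was -0.03, against -0.14 over all. Both higher regions were called in TAC on 60% fat and not in TAC on 10% fat. In sham hearts, 60% over 10% fat was above 0 in 2 of 20 regions, against 19.2% of all, and below 0 in 18. It was 2-fold lower in 6, against 24.8% of all, and 2-fold higher in none, against 2.01%. The median was -0.65, against -0.57 over all. The interval lay below 0 in 5, against 22.1% of all. All 6 regions past 2-fold were called in sham on 10% fat and not in sham on 60% fat. Among the 10 regions called in either TAC library none was 2-fold lower, against 14.2% of all regions so called.

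Shares of fragments take the library totals out of the comparison. The 20 regions, 0.515% of all regions, held 0.453% (exact binomial 95% interval 0.401 to 0.508) of the fragments in TAC on 60% fat and 0.385% (0.333 to 0.444) in sham on 60% fat. They held 0.372% (0.329 to 0.421) in TAC on 10% fat and 0.439% (0.394 to 0.489) in sham on 10% fat. As log2 ratios of shares, TAC over sham was 0.24 (-0.04 to 0.50) on 60% fat and -0.24 (-0.48 to 0.00) on 10% fat, and the difference between diets was 0.47 (0.11 to 0.84). It was 0.70 (0.19 to 1.22) in clustered and 0.23 (-0.30 to 0.76) in variant regions. These values sum over the 13 regions called only in a library that raises the difference, so the intervals give no support for its direction. As the difference uses all 4 libraries, it could not be taken in regions called outside them, and the contrast between clustered and variant regions was not tested.

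**Figure D4:**
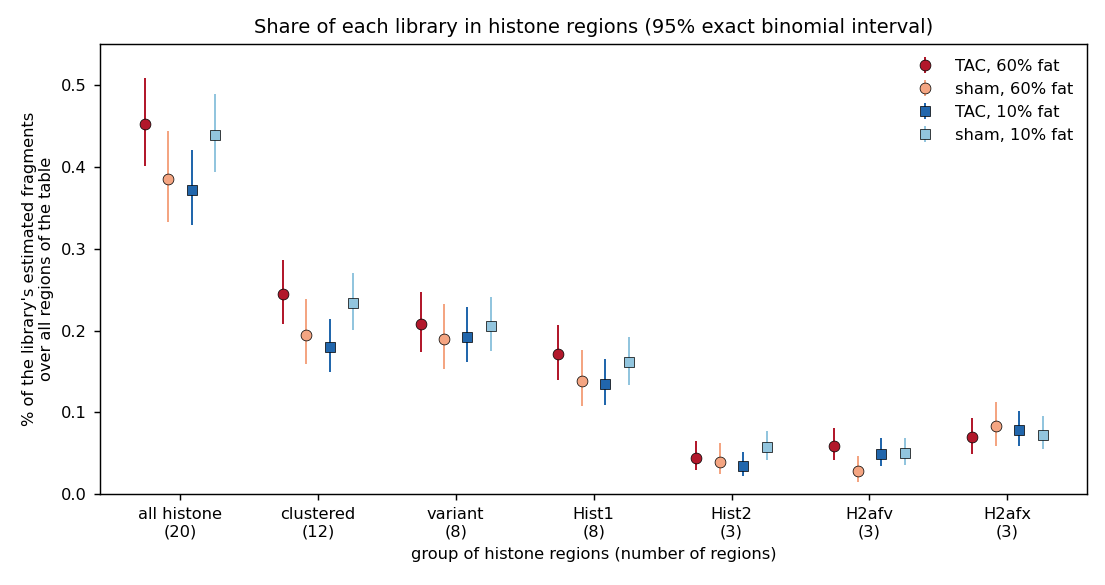
Share of each library's estimated fragments (vertical axis, percent) in groups of histone regions, with the number of regions in brackets; symbols are the 4 libraries and lines exact binomial 95% intervals. In clustered regions the order is 0.244% and 0.195% for TAC and sham on 60% fat and 0.180% and 0.233% for TAC and sham on 10% fat, while the variant shares lie between 0.190% and 0.208%.

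Genes that make and process histone messages were read from a list of 30, of which 17 had a region, 17 regions in all. On 60% fat TAC over sham was 2-fold higher in 1, against 15.5% of all regions, and lower in none, against 3.11%. On 10% fat it was higher in none, against 7.98%, and lower in 2, against 11.7%. Between sham libraries, 60% over 10% fat was 2-fold lower in 4, against 24.8%, and higher in none, against 2.01%. The region of Slbp, whose protein binds the stem-loop of histone messages, had a signal of 12.4, 10.4, 12.9 and 19.5, and that of Cpsf2, a subunit of the cleavage complex, 10.5, 12.6, 16.2 and 14.3. At Nfyb, a subunit of the CCAAT-binding complex NF-Y, it was 13, 3.78, 8.89 and 10.6, and TAC over sham on 60% fat was 1.55 (0.37 to 3.63). At Nfya, another subunit, it was 10.5, 6.15, 11.3 and 17.2. Nfyb was named for the highest ratio of the list, and its region was called in 1 library. The Nfyb interval therefore gives no support for a direction.

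Histone chaperones and exchange factors, which escort histones to chromatin, were read from a list of 38, of which 18 had a region, 22 regions in all. TAC over sham was 2-fold higher in 4 on 60% fat, against 15.5% of all regions, and lower in 1, against 3.11%. On 10% fat it was higher in none, against 7.98%, and lower in 4, against 11.7%. Between sham libraries 8 were 2-fold lower, against 24.8%, and none higher, against 2.01%. Chaf1a encodes the large subunit of the chromatin assembly factor that works at replication forks. Its region nearer the start had 15.4, 9.43, 15.6 and 15.2. The other Chaf1a region, 34567 bp from the start, had 11.6, 5.44, 7 and 15.6. There TAC over sham was 0.96 on 60% fat and -1.05 on 10% fat. The ATPase gene Ruvbl2 had 14.8, 9.10, 12.6 and 16.7. A region 10238 bp from the start of Daxx, a chaperone of replacement H3, had 15.6, 2.90, 3.70 and 11.5, with TAC over sham at 2.09 (0.90 to 4.46) on 60% fat and -1.41 on 10% fat. The region 35 bp from the Daxx start went the other way on both diets, with 4.80, 9.70, 13.4 and 7.90 and ratios of -0.88 on 60% fat and 0.69 on 10% fat. Nap1l4, a nucleosome assembly protein gene, had 9, 4.38, 6.25 and 20.9, and 60% over 10% fat was -2.02 (-4.06 to -0.91) between sham libraries. Daxx and Nap1l4 were named for the highest and the lowest ratio of the list, and the Nap1l4 region was called in 1 library. Their intervals therefore give no support for a direction.

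Marker genes were checked against the tissue label. Of 10 cardiomyocyte markers 3 had a region (Myh6, Pln and Ttn), and the defining genes Tnnt2, Tnni3 and Actc1 had none; the summed signal of the 3 was 8.48, 20.3, 8.74 and 25. These 3 regions were called in sham libraries alone, and Pln had 2.33, 11.2, 1.17 and 1, so the sum supports no direction. Of 14 genes of dividing cells 4 had a region (Aurkb, Ccna2, Mcm3 and Pcna), Mki67 and Top2a had none, and the summed signal of their 8 regions was 94.3, 58.0, 90.1 and 86.7. That sum is lowest in sham on 60% fat, the library with the fewest estimated fragments. The signal of 10 of the 20 histone regions is lowest there too, against 50.9% of all regions. The part of dividing cells in the ratios of histone regions was not tested. The nearest Aurkb region lay at -3847 bp from the start of the gene, and the Pcna region at -9912 bp. Those of Mcm3 and Ccna2 were nearer, at -225 and -296 bp. No fibroblast marker of 8 had a region. Kdr of 7 endothelial markers had 4.86, 3.57, 2.33 and 14.4, and Cd68 of 8 leukocyte markers had 3 regions with sums of 41.2, 37.7, 41.7 and 50.7. The Kdr region lay 44668 bp from the start of its gene and the Cd68 regions at 3291, -5339 and -6431 bp. Among the cardiomyocyte markers the Ttn region lay at 54474 bp, that of Myh6 at -2160 bp and that of Pln at -2917 bp. A region marks signal of the pulled-down protein at a gene and not expression, so these lists do not count cells.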

How the data were processed

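The study measured anti-ACAA2 ChIP-seq signal in 4 libraries of mouse heart, 1 per group, each a pool of 3 hearts. BWA, SICER and mm10 are named in the submitters' processing notes, without versions. The authors merged the intervals of all libraries into 3885 regions and deposited, for each region and library, an average signal and a highest signal (fragment pileup), with a mark for a called interval. No label or header states how the signal was scaled between libraries, which windows assigned genes and promoters, or whether starts count from 0 or 1. Coordinates of regions are those of the table.

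Ratios were computed on the log2 scale from the deposited average signal plus a pseudocount of 1, and 2-fold means a log2 ratio of at least 1 in either direction. Estimated fragments are the average signal times the length over 224, the constant that links the average signal to a fragment score the authors deposited for the higher library of each pair. Exact Clopper-Pearson 95% intervals come from rounded fragments without the pseudocount; the interval of a difference between diets is that of an exact conditional odds ratio. Fragments lack molecular identifiers, so intervals cover counting error only. Scripts used Python 3.11.15, numpy 2.4.6, pandas 2.3.3, scipy 1.17.1 and matplotlib 3.10.9, and were checked on simulated data. Promoters are RefSeq windows (GRCm38.p6) from 250 bases before to 50 after a start, and motifs were sought upstream only.

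The members, gene lists and motifs were chosen with earlier results of these data known. By the rule for named genes, values were due for variant regions and for clustered regions past 2-fold or among the 5 highest in signal; the other 4 clustered regions are given too. The values of 1 variant region are not reported here singly, though it stays in all counts and sums. From each other list the rule names the 2 genes highest in signal and those with the highest and lowest ratio. Alternatives were the pseudocount, highest signal, centring on the median, quantile scaling, signal filters, counting per gene, promoter regions and regions called outside the pair compared.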

Additional observations from a re-analysis of the deposited data

Results flagged for a closer look

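The median TAC over sham log2 ratio of the 20 histone regions had opposite signs on the 2 diets, 0.50 on 60% fat and -0.54 on 10% fat, a gap of 1.05 between medians. The gap was not tested, as each group is 1 library. At the Hist1h3e region the difference between diets was 2.28 and at the Hist1h4a region 1.94, the Hist1h3e region called in sham on 10% fat alone and the Hist1h4a region in TAC on 60% fat alone. Each was called only in a library whose high signal raises the difference, so its counting interval above 0 gives no support. Neither difference was tested against the spread between animals.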

How the results depend on the processing

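No paired analysis was possible because each group is 1 library, and for the same reason no library could be left out in turn. Of the summary values, 97 stayed within their limits under the alternatives, 24 moved and 3 reversed; the 75 values of single 2-fold regions kept their sign and moved by less than their counting interval, but 18 were no longer 2-fold, 7 of them under centring and 5 under quantile scaling. The cause of each shift was not tested unless the alternative itself sets it. Centring each comparison on the median of all regions took the TAC over sham median on 60% fat to 0.18 (0.18 with quantile scaling), the difference between diets to 0.40 (0.43), and the sham median of 60% over 10% fat to -0.081 (-0.083). It reversed the TAC median of 60% over 10% fat to 0.11 (0.10), as did counting each gene apart, 0.069. Centring left 1 region 2-fold lower in TAC on 10% fat and 2 in sham on 60% fat against 10% fat (3 with quantile scaling). Requiring signal in the higher library gave 2 of the 9 regions kept as 2-fold higher in TAC on 60% fat. On 10% fat it gave 1 of the 7 regions kept as lower in TAC. Counting each gene apart gives 38 gene values in place of 20 regions. Of these 38, 6 were lower in TAC on 10% fat and 7 higher on 60% against 10% fat in TAC. Among regions called outside the pair compared, 1 of 7 was lower in TAC on 10% fat. In TAC 0 of 13 were higher on 60% against 10% fat, and in sham 0 of 10 were lower on 60% against 10% fat. For the sham comparison 14.2% of all regions under the same filter were lower. For the other counts under an alternative no such share of all regions was computed. Those counts therefore do not set histone regions apart from the rest. A pseudocount of 0.5 gave 1 region lower on 60% against 10% fat in TAC, and the highest signal gave 1 lower and 1 higher. Summing signal without length gave histone shares of 0.533% in TAC on 60% fat, 0.460% in sham on 60% fat, 0.444% in TAC on 10% fat and 0.533% in sham on 10% fat, and among promoter regions the share in TAC on 60% fat was 0.512%. A median of about 10 fragments per region limits what a single region can show.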

Other observations

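The Hist1 cluster on chromosome 13 also holds regions of other genes. From its first to its last histone region, 21710457 to 23761523, the table lists 22 regions, of which 14 have no histone gene. In these 14 the median log2 ratio of TAC over sham was 0.11 on 60% fat and 0.51 on 10% fat, against 0.75 and -0.59 in the 8 histone regions of the cluster. On 60% fat 1 of the 14 was 2-fold higher and 1 lower in TAC, against 15.5% and 3.11% of all regions. On 10% fat 2 were higher and 0 lower, against 7.98% and 11.7%. Of the 8 histone regions 7 were called in 1 library alone, so their medians give no support for a direction. Several of the 14 lie close together, between 23432608 and 23453743, and are not separate loci. The contrast was not tested.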
